A study of Mus musculus with 32 samples.

Results

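The genes described here encode the machinery that brings nuclear-encoded proteins into mitochondria. They were taken by name: every protein-coding gene whose symbol in the GENCODE M21 mouse annotation starts with Timm or Tomm, which gave 26 genes of 21644 protein-coding genes with matched transcripts. The RNA came from 4 tissues of male C57BL/6J mice, namely brown fat (BAT), heart, liver and muscle, and the mice were either wild-type (WT) or labelled Mut, the submitters' name for a SMIM30 knockout. Each of the 8 groups held 4 libraries, from 4 individual mice. The sources used here give neither the age of the mice nor the kind of knockout allele or the muscle sampled.

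Most mitochondrial proteins are made in the cytosol and enter through the translocase of the outer membrane (TOM). TOM consists of receptors, the channel protein TOMM40 and small stabilising subunits. Small chaperones of the intermembrane space then carry hydrophobic precursors to the TIM22 complex, which inserts carrier proteins into the inner membrane. The TIM23 complex handles proteins with a cleavable presequence and passes them to the matrix with the help of an ATP-driven motor. Tissues rich in respiring mitochondria, such as brown fat and heart, need a steady supply of imported enzymes.

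Values are TPM, the relative abundance of transcripts, which are corrected for transcript length and sum to a fixed total in a library, so read depth cannot be recovered from them and is unknown. Each tissue's own marker list was highest in that tissue. Mitochondrially encoded RNA took 36.7% ± 1.11 of the TPM in WT BAT, 42.0% ± 1.16 in WT heart, 11.7% ± 1.81 in WT liver and 27.2% ± 2.02 in WT muscle (SD, n = 4). These shares matter for every comparison of TPM between tissues, since the import genes compete with that RNA for the same fixed sum. The Smim30 transcript, annotated as 2610001J05Rik, was at 27.3 to 33.0 TPM in the BAT libraries labelled Mut and 23.5 to 32.3 TPM in WT BAT. In heart it was at 17.8 to 27.4 TPM in Mut and 32.7 to 37.6 TPM in WT, and in muscle at 24.3 to 27.3 against 32.9 to 35.7 TPM, and in both tissues every Mut library lay below every WT library. In liver it was at 17.3 to 25.6 TPM in Mut and 18.6 to 26.4 TPM in WT, and the groups overlapped there and in BAT. No tissue passed the test for this gene (limma, adjusted p = 0.224 to 0.852). Mut below means the libraries labelled Mut.

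The promoters of the members share sequence features with one another to differing degrees. RefSeq start sites on GRCm38.p6 were matched for 23 of the 26 members, each with a window of 250 bases before and 50 after the start. The letters CCGGAAG, a core of the sites bound by ETS factors such as GABPA, stood on either strand in the windows of 10 members (43.5%), against 12.9% of 17492 protein-coding genes. AAGGTCA, a core of the estrogen-related receptor site, stood in 3 members (13.0%, against 4.73%). These were Timm8b, Timm23 and Timm44. The core of the NRF1 site stood in 2 members (8.70%, against 9.61%), Timm8b and Tomm20. GGGCGG stood in 47.8% of members and 49.2% of coding genes, and CCAAT in 30.4% and 42.3%. These shares are descriptions of letters, with no test and no measure of binding.

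Timm8b and Timm23 are shown because their tissue order in TPM was identical in WT mice, muscle above BAT above heart above liver with no overlap between neighbouring tissues. For Timm8b the step from BAT to heart was small, with a lowest BAT library of 136.9 TPM and a highest heart library of 136.5 TPM, and it did not pass the test described below (log2 fold change -0.16, limma adjusted p = 0.149). Each sequence gives the 250 bases before the RefSeq start site, on the gene's own strand, with matches to CCGGAAG (or its reverse complement) and AAGGTCA in capitals. The Timm8b window is chr9:50603651-50603900 on the plus strand, and the Timm23 window is chr14:32201892-32202141 on the minus strand (GRCm38.p6).
Timm8b: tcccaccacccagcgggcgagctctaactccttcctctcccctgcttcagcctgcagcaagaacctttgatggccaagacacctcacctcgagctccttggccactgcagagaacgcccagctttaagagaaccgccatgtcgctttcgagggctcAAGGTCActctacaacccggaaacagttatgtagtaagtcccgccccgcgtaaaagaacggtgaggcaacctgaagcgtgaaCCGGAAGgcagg
Timm23: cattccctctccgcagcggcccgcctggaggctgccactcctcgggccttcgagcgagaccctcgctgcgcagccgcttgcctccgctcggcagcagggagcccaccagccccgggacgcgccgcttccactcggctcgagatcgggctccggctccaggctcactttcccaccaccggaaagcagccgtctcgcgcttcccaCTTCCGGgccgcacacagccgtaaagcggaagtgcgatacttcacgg
In Timm8b the AAGGTCA match began 94 bases and the CCGGAAG match 12 bases before the start site. In Timm23 the printed CCGGAAG match, in reverse complement, began 47 bases before the start, and a second CCGGAAG and the AAGGTCA overlapped each other between 10 and 20 bases after it. Both genes start head to head with another gene on the opposite strand. Between GENCODE M21 start sites, 98 bases separate Timm8b from Sdhd, a subunit of respiratory complex II, and 51 bases separate Timm23 from Parg. The GENCODE starts, chr9:50603910 for Timm8b and chr14:32201898 for Timm23, differ from the RefSeq ones. These distances are therefore not on the scale of the match positions.

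In 24 members the mean reached 1 TPM in all 8 groups, and all 24 were also above 5 TPM. The other 2 were near 0. Tomm20l, a relative of the receptor gene Tomm20, was above 0 in 1 library at 0.0892 TPM, and Timm8a2, a relative of Timm8a1, was above 0 in 6 libraries with a highest value of 0.114 TPM. Summed over the members, WT BAT held 1652 ± 96.5 TPM, WT muscle 1428 ± 67.4, WT heart 1163 ± 19.6 and WT liver 1070 ± 64.0 (SD, n = 4). Per percent of TPM outside mitochondrially encoded genes, the same sums were 26.1 ± 1.12 in BAT, 20.0 ± 0.498 in heart, 19.6 ± 1.15 in muscle and 12.1 ± 0.530 in liver. On that footing heart and muscle overlapped, and BAT remained the highest and liver the lowest of the WT tissues. In whole tissue, fewer cells of a type and less RNA per cell cannot be told apart.

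**Figure D1:**
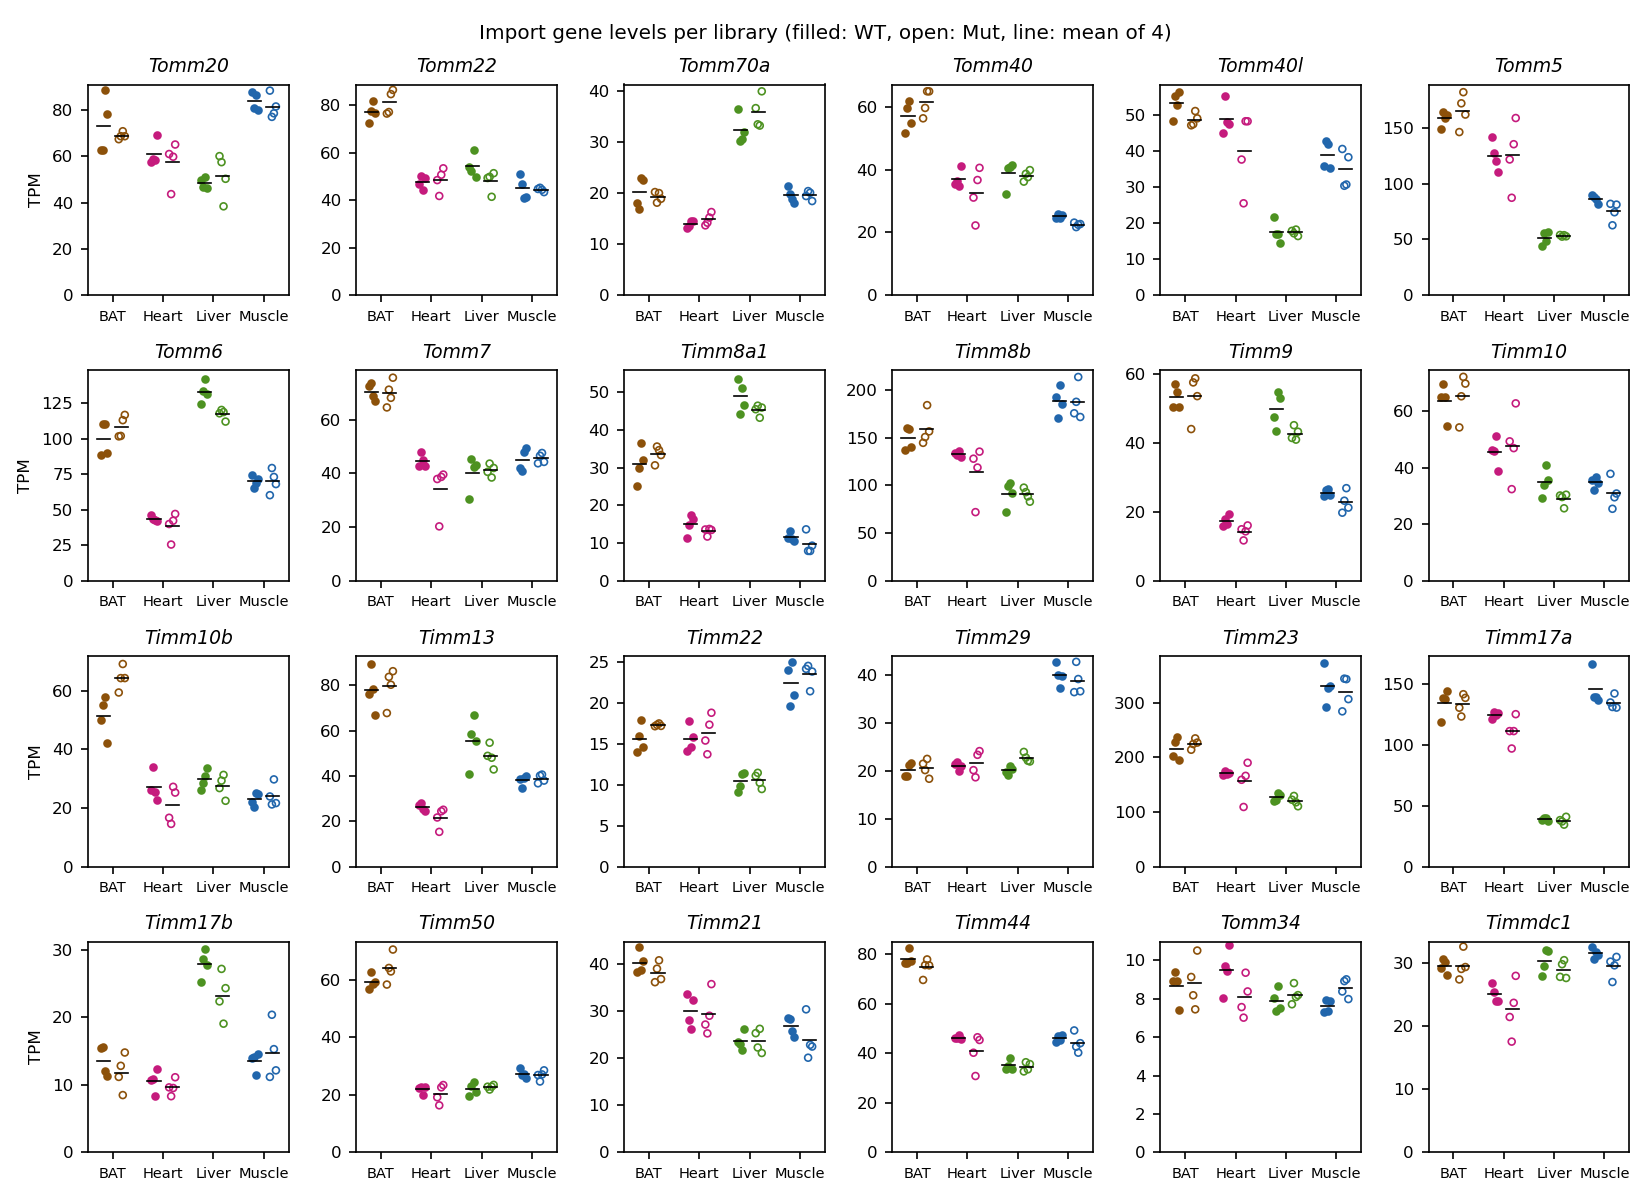
TPM (y axis, from 0) of the 24 members above 1 TPM in each of the 32 libraries by tissue (x axis); filled points are WT, open points Mut, and lines are means of 4. Tissue differences exceed the WT to Mut differences for most genes, such as Timm17a at 37.6 to 40.4 TPM in WT liver and 118.6 TPM or more in WT BAT.

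Of the 24 members, 12 had their highest WT mean in BAT, 7 in muscle, 4 in liver and 1 in heart. For 17 of them every library of the highest tissue lay above every other WT library: 9 in BAT, 4 in liver and 4 in muscle. Neither count was made over all genes, so whether the import genes differ from other genes here was not tested. The highest tissue depended in part on the scaling. When library sizes were set by the median gene ratio, 23 of 24 kept their highest tissue, and when the mitochondrial and 10 most abundant genes were removed before rescaling, 17 did. In the second case 16 members were highest in BAT, and Timm8a1, Tomm6 and Tomm70a moved there from liver.

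Each difference between WT tissues was tested with limma on log2(TPM + 1) over 12710 genes, and a gene was called where its p, adjusted by the Benjamini-Hochberg method, was under 0.05. On this scale the fold changes of genes at low TPM are understated. Heart against BAT gave 18 members lower and 0 higher, where 39.9% of all genes tested were called lower and 23.2% higher. Liver against BAT gave 16 lower and 4 higher (35% and 37.4% of all genes). Muscle against BAT gave 14 lower and 4 higher (40.9% and 32.7%). The median member difference was -0.44, -0.56 and -0.54 on the log2 scale for heart, liver and muscle against BAT, and the median of all genes was -0.13, 0.01 and -0.08. These 3 comparisons share the BAT libraries.

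Outside BAT the members were more evenly divided. Liver against heart gave 11 members lower and 7 higher, with 32.5% and 46.7% of all genes called. Muscle against heart gave 13 higher and 6 lower (35.9% and 28.9%), and muscle against liver gave 10 higher and 9 lower (37.2% and 42.9%). The median member differences were -0.11, 0.26 and 0.11, and those of all genes 0.18, 0.07 and -0.07.

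The split between higher and lower calls moved with the scaling in all 6 comparisons, so the calls that held under all 3 scalings are given as well. The rescaling without mitochondrial and abundant genes shifted the median of all genes from 0.01 to -0.56 for liver against BAT, from 0.18 to -0.55 for liver against heart, from 0.07 to -0.28 for muscle against heart and from -0.07 to 0.29 for muscle against liver. For heart against BAT, 13 members were lower under all 3 scalings and none was higher, while the other scalings called Timm29 and Tomm34 higher. For liver against BAT 16 were lower and 1 (Timm17b) higher, and for muscle against BAT 14 were lower and 3 (Timm22, Timm23 and Timm29) higher. Muscle against heart had 3 higher (Timm23, Timm29 and Tomm6) and 6 lower under all 3, against 3 higher and 12 lower under the rescaling alone. Liver against heart had 5 higher and 11 lower, and muscle against liver 10 higher and 6 lower. Over the 6 comparisons, median-ratio scaling called 64.6% to 82.3% of all genes, both directions together. The rescaling called 63.6% to 83.1%. These shares are not split by direction here. The share of all genes called the same way under all 3 scalings was not computed. Where the same rescaling moved a difference named below by more than 1.5 times, its value is given beside it.

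**Figure D2:**
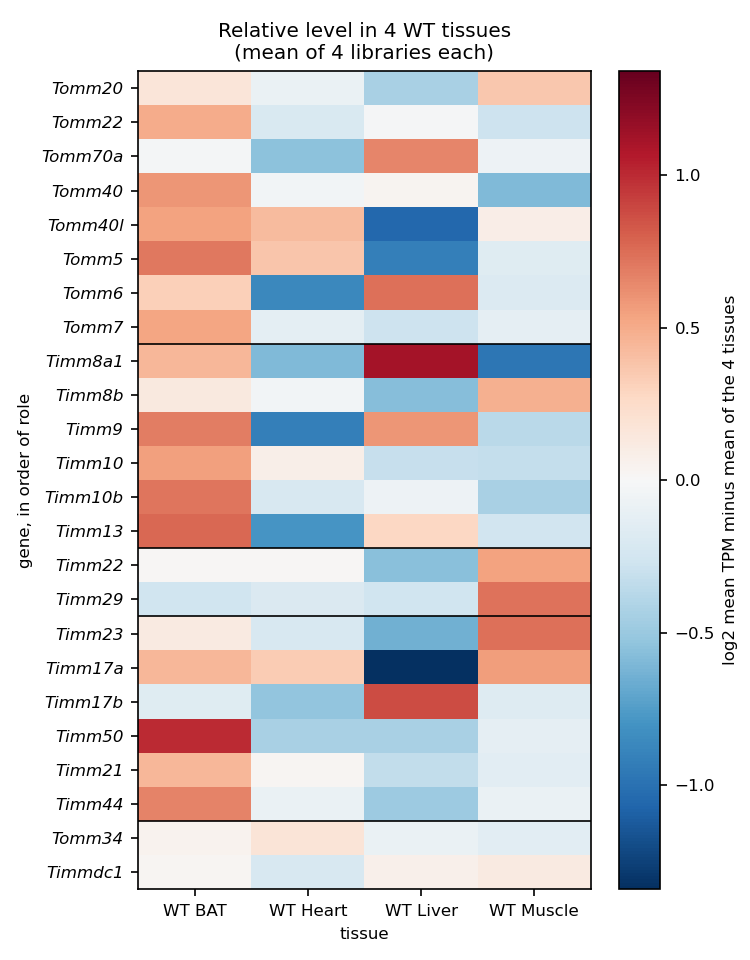
Log2 of the mean WT TPM of each member minus its mean over the 4 tissues (colour), with tissues as columns and members as rows; black lines separate the roles. BAT is above the average for most members, and Timm17a, Timm17b and Timm8a1 show liver set apart in both directions.

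Among the outer membrane genes, the general receptors Tomm20 and Tomm22 and the channel gene Tomm40 differed in their order. Tomm40 held 51.7, 59.6, 61.9 and 54.8 TPM in the WT BAT libraries, 34.9 to 41.3 in heart, 32.3 to 41.4 in liver and 24.6 to 25.8 in muscle. The BAT libraries lay above all others and the muscle libraries below all others, and heart and liver overlapped. Tomm40 was lower in muscle than in BAT by a log2 fold change of -1.15 (SE 0.09, adjusted p = 1.83e-09) and lower in muscle than in heart by -0.54 (SE 0.09, adjusted p = 3.45e-05), or -0.95 under the rescaling without mitochondrial and abundant genes. Tomm70a, a receptor for carrier precursors bound to chaperones, had 30.2 to 36.4 TPM in WT liver and at most 23.0 TPM in any other WT library.

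The 3 small TOM subunits, which steady the complex, did not share an order either. Tomm5 was at 148.9, 164.5, 159.4 and 162.1 TPM in WT BAT, 111.0 to 141.8 in heart, 81.6 to 90.2 in muscle and 44.4 to 56.8 in liver, with no overlap between tissues. Liver was lower than BAT by a log2 fold change of -1.62 (SE 0.09, adjusted p = 1.16e-11), and muscle lower than heart by -0.52 (SE 0.09, adjusted p = 4.55e-05; -0.93 when rescaled). Tomm6 ran the other way. Its WT liver libraries held 124.6, 133.7, 142.5 and 131.5 TPM and its heart libraries 42.2 to 46.3, a difference of 1.58 (SE 0.08, adjusted p = 5.26e-12) that was 0.76 when rescaled. Tomm6 was the most abundant member of WT liver. Tomm7 was at 67.0 to 73.5 TPM in WT BAT and 30.6 to 49.4 TPM in the other WT libraries.

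The small chaperones of the intermembrane space work as hexamers of TIMM9 with TIMM10 and of TIMM8 with TIMM13. Timm9 was at 50.3, 57.1, 54.6 and 50.4 TPM in WT BAT and 16.0, 17.8, 16.6 and 19.4 TPM in WT heart. Timm13 had a like pattern, with 67.0 to 89.3 TPM in BAT and 24.6 to 27.9 TPM in heart. The heart libraries of both genes lay below those of every other WT tissue. Heart was lower than BAT by log2 fold changes of -1.55 for Timm9 (SE 0.08, adjusted p = 2.14e-11) and -1.52 for Timm13 (SE 0.12, adjusted p = 4.68e-09). Timm10, the partner of Timm9, did not follow it: WT heart at 45.6 ± 5.06 TPM overlapped WT liver at 34.9 ± 4.76 TPM, and Timm9 was at 49.7 ± 5.12 TPM in that liver group.

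Timm22 and Timm29, the genes counted here under TIM22, were highest in muscle. Timm10b, a small TIM attached to that complex, went the other way, at 51.4 ± 6.90 TPM in WT BAT and 23.1 ± 2.38 in WT muscle. Timm29, a metazoan subunit of the complex, was at 42.8, 40.0, 37.3 and 39.8 TPM in WT muscle and at 18.9 to 21.9 TPM in all other WT libraries, which overlapped one another. Muscle was 1.98 times BAT (log2 fold change 0.96, SE 0.07, adjusted p = 9.53e-10) and 1.89 times heart (0.89, SE 0.07, adjusted p = 4.84e-09), the latter 0.51 when rescaled. Timm22, the insertase itself, was at 19.7 to 25.0 TPM in WT muscle and 9.16 to 11.4 TPM in WT liver. Timm22 and Timm29 together made up 4.37% ± 0.0426 of the members' TPM in WT muscle and 2.17% ± 0.113 in WT BAT, a share that needs no scaling between libraries.

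In the TIM23 complex, the channel gene Timm23 was the most abundant member in every group except WT liver. Its WT muscle libraries held 372.6, 293.0, 327.5 and 330.0 TPM, BAT 196.2 to 237.5, heart 168.6 to 174.9 and liver 120.2 to 135.2. Muscle was higher than BAT by 0.61 on the log2 scale (SE 0.08, adjusted p = 2.19e-06), higher than heart by 0.94 (SE 0.08, adjusted p = 1.51e-08) and higher than liver by 1.37 (SE 0.08, adjusted p = 2.53e-11). When rescaled, the differences from BAT and heart were 0.36 and 0.54. The Timm-named genes of the complex and its motor took 41.3% ± 1.41 of the members' TPM in WT muscle, 34.8% ± 0.553 in heart, 32.8% ± 0.264 in BAT and 25.7% ± 0.428 in liver. Parts with other names are not in these sums. Transcripts not typed as coding are, such as a retained-intron one with 66.5% ± 1.85 of the Timm17a TPM in WT muscle. These shares were not computed over protein-coding transcripts alone. The receptor gene of the complex, Timm50, did not follow Timm23: it was at 56.8 to 62.7 TPM in WT BAT and 25.8 to 29.4 TPM in WT muscle. Timm44, which tethers the motor to the channel, was likewise highest in BAT, at 76.3 to 82.3 TPM.

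The 2 members with other roles varied least between WT tissues. Tomm34, a cytosolic cochaperone, had a highest to lowest tissue mean ratio of 1.24, and Timmdc1, an assembly factor of respiratory complex I, one of 1.26. The remaining members above 1 TPM had ratios from 1.71 (Tomm22 and Timm21) to 4.25 (Timm8a1).

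Pairs of related genes were in different proportions in liver than elsewhere. Timm17a and Timm17b encode alternative partners of TIMM23. The Timm17a libraries of WT liver held 38.0, 40.4, 40.1 and 37.6 TPM, against 118.6 to 144.4 in BAT, 121.1 to 127.3 in heart and 136.7 to 166.5 in muscle. Timm17b was at 25.3, 28.6, 30.1 and 27.8 TPM in WT liver and at 8.37 to 15.6 TPM in every other WT library. Both genes therefore separated liver from the other tissues, in opposite directions.

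The tests of both genes passed against more than 1 tissue. Timm17a was lower in liver than in BAT by -1.76 (SE 0.07, adjusted p = 4.73e-13) and than in heart by -1.65 (SE 0.07, adjusted p = 8.91e-13), and higher in muscle than in liver by 1.87 (SE 0.07, adjusted p = 1.24e-13). Timm17b was 2.06 times higher in liver than in BAT (log2 fold change 1, SE 0.12, adjusted p = 8.22e-07) and lower in muscle than in liver by -1 on the log2 scale (SE 0.12, adjusted p = 6.48e-07). When rescaled, these Timm17b differences were 0.35 (adjusted p = 0.0171 by limma) and -0.59, and that of Timm17a between liver and heart was -2.50. The ratio of Timm17a to Timm17b, which is free of scaling, was 1.40 ± 0.0771 in WT liver, 10.2 ± 2.32 in BAT, 12.1 ± 2.01 in heart and 10.8 ± 1.44 in muscle (SD, n = 4).

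Part of both sums came from transcripts not typed as coding. A retained-intron transcript of 565 bases held 65.7% to 70.0% of the Timm17a TPM in the WT groups, and a retained-intron transcript of 761 bases held 32.9% to 44.8% of the Timm17b TPM (group means). Over protein-coding transcripts alone the ratio was 0.828 ± 0.157 in WT liver, 5.58 ± 1.40 in BAT, 6.30 ± 1.23 in heart and 5.42 ± 0.585 in muscle. Liver remained apart from the other tissues on either sum, but whether Timm17a or Timm17b was the more abundant in liver depended on the transcripts counted.

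Timm8a1 and Timm8b encode alternative partners of TIMM13, and the human counterpart of Timm8a1 is the gene of a deafness and dystonia syndrome. Timm8a1 was at 53.6, 44.2, 51.2 and 46.8 TPM in WT liver, 25.0 to 36.5 in BAT, 11.4 to 17.5 in heart and 10.5 to 13.1 in muscle. Timm8b was highest in muscle and lowest in liver, with 193.0, 171.2, 204.9 and 185.3 TPM in muscle, 136.9 to 160.6 in BAT, 129.5 to 136.5 in heart and 72.1 to 102.5 in liver. The ratio of Timm8a1 to Timm8b was 0.550 ± 0.132 in WT liver, 0.207 ± 0.0251 in BAT, 0.113 ± 0.0202 in heart and 0.0616 ± 0.0103 in muscle. No 2 of these 4 WT groups overlapped.

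Timm8a1 was higher in liver than in heart by 1.65 (SE 0.13, adjusted p = 1.50e-09), lower in muscle than in BAT by -1.34 (SE 0.13, adjusted p = 3.79e-08) and lower in muscle than in liver by -2 on the log2 scale (SE 0.13, adjusted p = 9.16e-11). When rescaled, the difference between liver and heart was 0.85. Its difference between liver and BAT was 0.66 (SE 0.13, adjusted p = 0.000164) and became -0.02 under the rescaling without mitochondrial and abundant genes (adjusted p = 0.906). The ratio to Timm8b does not move with scaling.

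**Figure D3:**
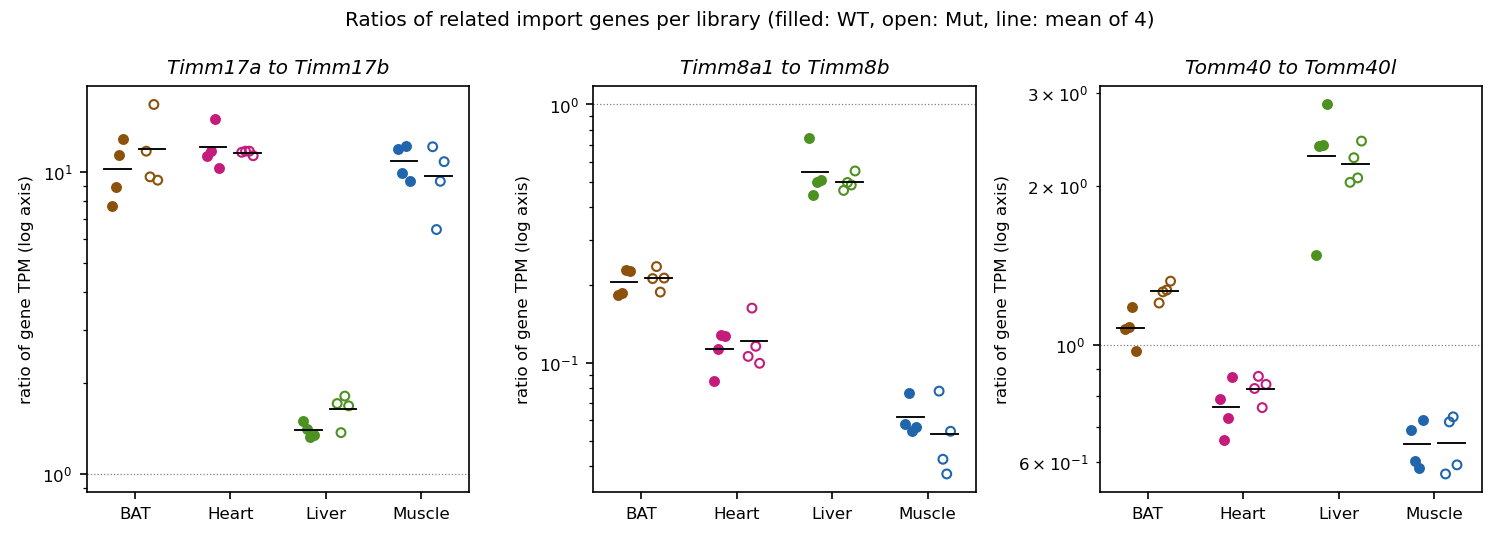
Ratio of the gene TPM of 3 related pairs (y axis, log) in each library by tissue (x axis); filled points are WT, open points Mut, and lines are means of 4. WT liver is set apart in each pair, at 1.40 for Timm17a to Timm17b, 0.550 for Timm8a1 to Timm8b and 2.28 for Tomm40 to Tomm40l.

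Tomm40l encodes a second form of the outer membrane channel. Its WT libraries held 48.5, 55.4, 52.7 and 56.4 TPM in BAT, 44.9 to 55.3 in heart, 35.4 to 42.9 in muscle and 14.5 to 21.8 in liver. Liver lay below all other tissues, and its difference from heart was -1.43 (SE 0.11, adjusted p = 1.05e-09), which was -2.28 when rescaled and -0.68 over protein-coding transcripts alone. The ratio of Tomm40 to Tomm40l was 2.28 ± 0.574 in WT liver, 1.07 ± 0.0831 in BAT, 0.762 ± 0.0893 in heart and 0.650 ± 0.0661 in muscle.

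The transcript make-up of Tomm40l also set liver apart. A 10-exon transcript of 4712 bases held 73.5% ± 4.57 of the Tomm40l TPM in WT liver and 1.65% ± 0.310, 2.88% ± 0.492 and 3.93% ± 0.365 in WT BAT, heart and muscle. In TPM it was at 11.5 to 16.0 in liver and at most 1.90 in any other WT library. Of its 4712 bases, 3304 (70.1%) lie within exons of Nr1i3, a gene on the opposite strand that encodes the xenobiotic receptor CAR. Some shorter Tomm40l transcripts lie within those exons to a larger part, from 80.7% to 83.9%, and others share no bases with them. The one at 80.7%, of 2812 bases, led in WT muscle with 29.0% ± 2.66 of the Tomm40l TPM. Nr1i3 was at 343 ± 54.8 TPM in WT liver and 3.31 ± 0.313, 3.44 ± 0.305 and 4.64 ± 0.570 TPM in WT BAT, heart and muscle. The libraries were strand-specific per the labels, and whether the quantification used strand is not stated. The part of Nr1i3 reads in the Tomm40l value was not tested.

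Without that transcript, Tomm40l was at 4.70 ± 1.22 TPM in WT liver, and the ratio of Tomm40 to it was 8.92 ± 3.41 there against 1.09 ± 0.0864 in BAT. Over protein-coding transcripts, which include it, the ratio was 2.86 ± 0.657 in WT liver, 2.23 ± 0.178 in BAT, 1.60 ± 0.244 in heart and 1.08 ± 0.122 in muscle, and liver and BAT overlapped. The size of the liver difference in this pair thus depended on how overlapping transcripts were treated.

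**Figure D4:**
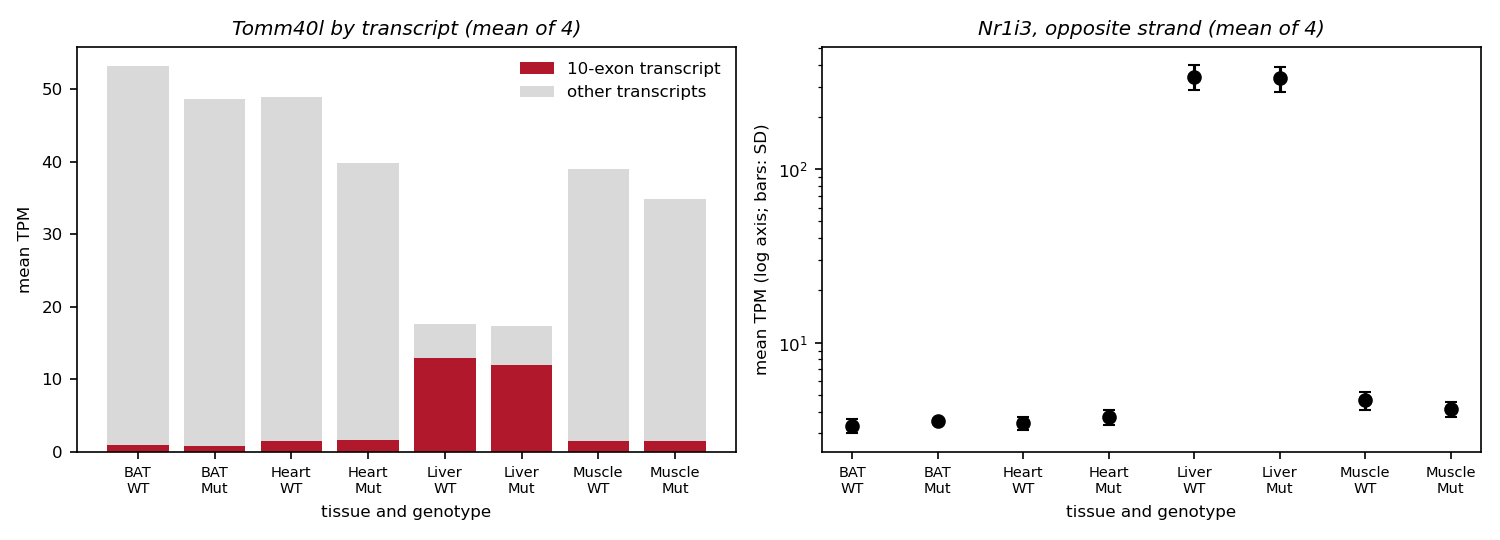
Left, mean TPM of Tomm40l (y axis, from 0) by group, split into its 10-exon transcript and all other transcripts; right, mean TPM of Nr1i3 (log axis, bars SD, n = 4) in the same groups. The 10-exon transcript makes up 73.5% of Tomm40l in WT liver, where Nr1i3 is at 343 TPM.

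Some other members also overlap a neighbouring gene. Timm21, a TIM23 subunit, lies wholly within Fbxo15 on the opposite strand, and Fbxo15 was at or under 0.306 TPM in every library. Only 22.7% to 28.1% of the Timm21 TPM in the WT groups came from its protein-coding transcript. Timm10b shares 3086 of its 3582 bases on the same strand with Gm45799, which was at 0.273 to 28.1 TPM over the WT libraries, so reads of these 2 genes may have been divided differently between libraries. Tomm6 shares 1648 bases on the same strand with Gm21981, which stayed at or under 0.983 TPM.

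Import genes outside the Timm and Tomm names, a list of 26 that includes the sorting machinery, motor partners, processing proteases and chaperones, were tested in the same fits. Heart, liver and muscle against BAT gave 21, 19 and 20 of 26 lower, where 39.9%, 35% and 40.9% of all genes were, and 0, 3 and 4 higher, where 23.2%, 37.4% and 32.7% were. Dnajc15, which encodes a J-protein of the import motor, was at 143.8 TPM in WT BAT and 31.0, 17.7 and 29.5 TPM in WT heart, liver and muscle. Grpel2, a nucleotide exchange factor of the motor, ran the other way, with 36.0 TPM in WT liver and 6.16, 5.10 and 6.94 TPM in WT BAT, heart and muscle. Its liver difference from heart was 2.59 (SE 0.09, adjusted p = 4.26e-14). Against liver, the Nduf genes of complex I gave 42 of 46 higher in muscle, the members gave 10 of 24, and 37.2% of all genes were higher. These 2 lists were not compared by a test.

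The genotype comparison asked whether the import genes differed in Mut mice, tissue by tissue. None of the 24 members passed an adjusted p of 0.05 in any tissue (limma with Benjamini-Hochberg adjustment over all genes). The share of all genes called was 0% of 12150 in BAT, 0.15% in heart, 4.16% in liver and 0.0085% in muscle. These shares moved with single libraries: with each library left out they ranged from 0% to 6.74% in BAT, the highest without WT library 3, and from 0.183% to 3.25% in liver, the lowest without WT library 3. They ranged from 0.0585% to 0.166% in heart and from 0% to 0.068% in muscle. With the replicate block the liver share was 1.05%. In 1 joint fit of all libraries the shares were 5.2% in BAT, 0.593% in heart, 12.9% in liver and 0.0234% in muscle. None of these settings called a member. At an unadjusted p under 0.05 there were 1, 2, 5 and 2 members in BAT, heart, liver and muscle, where 19.5%, 11.6%, 25.9% and 7.76% of all genes were. Groups did not overlap for 1, 1, 2 and 2 members, where 9.41%, 7.53%, 16.4% and 4.49% of all genes did not overlap.

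**Figure D5:**
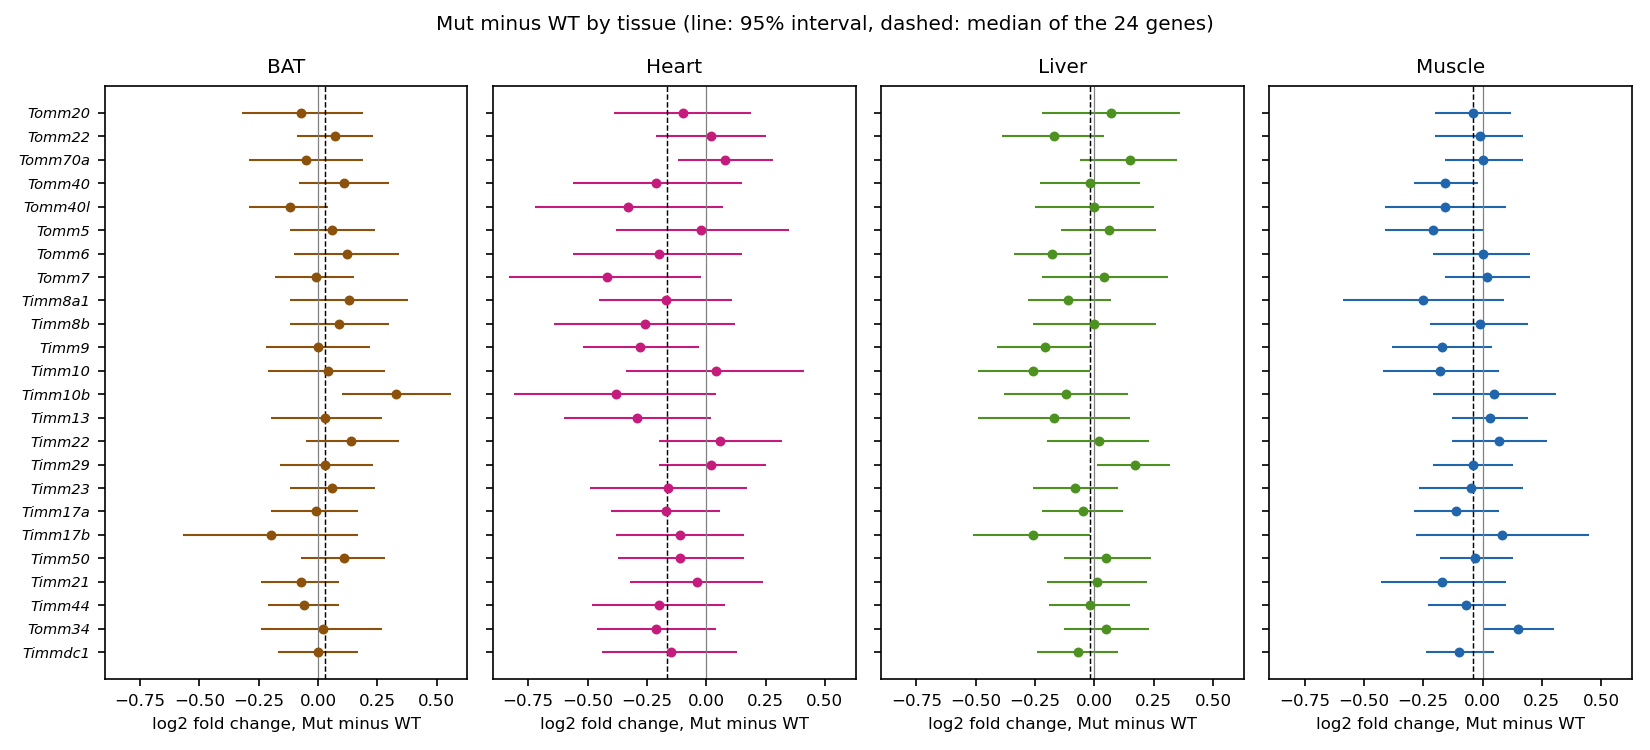
Log2 fold change of the 24 members, Mut minus WT (x axis), with 95% intervals from limma, in each tissue; the dashed line is the median of the 24. No member passed the test, and the widest shifts lie between -0.42 (Tomm7 in heart) and 0.33 (Timm10b in BAT).

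In BAT, Timm10b, a small TIM attached to TIM22, had the smallest p. It is the gene that shares most of its bases with Gm45799, which was at 10.5 to 15.1 TPM in Mut BAT and 5.15 to 28.1 TPM in WT BAT, and the part of that gene was not tested. Its Mut libraries held 59.5, 64.4, 69.2 and 64.4 TPM and its WT libraries 50.2, 55.1, 58.0 and 42.3 TPM. Every Mut library lay above every WT library, with a log2 fold change of 0.33 (95% interval 0.10 to 0.56, adjusted p = 0.158). Tomm40l was at 48.7 ± 1.82 TPM in Mut BAT and 53.2 ± 3.54 in WT BAT, with -0.12 (-0.29 to 0.04, adjusted p = 0.384), a sign that did not hold over protein-coding transcripts, where it was 0.03. Timm22 was at 17.3 ± 0.153 TPM against 15.7 ± 1.77 TPM (0.14, -0.05 to 0.34, adjusted p = 0.402). Macrophage markers summed to 183 to 251 TPM in Mut BAT and 37.5 to 182 in WT BAT, with 6 of 6 higher and none called, and fibroblast markers to 313 to 556 against 143 to 258 TPM. Red blood cell markers summed to 4080 to 6220 against 2100 to 3860 TPM, and skeletal muscle fibre markers to 949 to 2470 against 1050 to 1140 TPM, with 5 of 5 of each higher and none called. Brown adipocyte markers summed to 4290 to 4910 TPM in Mut and 4220 to 5180 in WT, with 5 of 5 lower and none called. The part of these cell types in the BAT values was not tested. The median of the members was 0.03 with 16 of 24 higher, and that of all genes was 0.09. Under median-ratio scaling the members' median was -0.09 with 21 of 24 lower, and that of all genes was -0.02.

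In heart, 19 of the 24 members had a negative log2 fold change, Mut minus WT, with a median of -0.16 and a median of -0.11 over all genes. Tomm7 held 37.9, 20.3, 38.7 and 39.6 TPM in Mut and 42.7, 48.0, 45.1 and 42.9 TPM in WT (-0.42, 95% interval -0.83 to -0.02, adjusted p = 0.425). All Mut values were below all WT values, and 1 Mut library was far below the other 3. Timm9 was at 14.3 ± 1.84 TPM in Mut and 17.5 ± 1.49 in WT (-0.28, -0.52 to -0.03, adjusted p = 0.412), and Timm13 at 21.7 ± 4.45 against 26.3 ± 1.49 (-0.29, -0.60 to 0.02, adjusted p = 0.446).

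Mut heart library 2 stood apart. The members summed to 1067, 1132 and 1258 TPM in the other Mut hearts and to 1146 to 1190 TPM in WT hearts. In library 2 they summed to 782.9 TPM, and mitochondrially encoded RNA took 54.5% of its TPM. Without this library the median of the members was -0.04, that of all genes -0.05, and 15 of 24 were lower. Under median-ratio scaling the median of the members was -0.03 with 14 of 24 lower, and under the rescaling without mitochondrial and abundant genes it was 0.00 with 12 of 24 lower. The medians of all genes under these 2 scalings were 0 and 0.03. Red blood cell markers summed to 3250 to 26200 TPM in Mut hearts and 3090 to 6410 in WT. Atrial markers summed to 22.2 to 87.6 TPM in Mut hearts and 326 to 3280 in WT, and all 4 were called lower. Cardiomyocyte markers summed to 14300 to 21200 TPM in Mut and 20700 to 22900 in WT, with 4 of 5 lower and none called. The part of these cell types in the heart values was not tested. Of all genes tested, 19.3% had a positive log2 fold change, Mut minus WT, in heart. Log2 fold changes were negative for 44 of 46 Nduf genes (median -0.29) and 75 of 78 mitochondrial ribosomal genes (median -0.19). They were positive for 10 of 13 mitochondrially encoded mRNAs (median 0.10). No gene of these lists was called.

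In liver no member passed. Tomm6 was at 118.0, 120.4, 118.9 and 112.2 TPM in Mut and 124.6, 133.7, 142.5 and 131.5 TPM in WT, with no overlap (-0.18, 95% interval -0.34 to -0.02, adjusted p = 0.157). Timm29 did not overlap in the other direction, at 24.0, 22.8, 22.1 and 22.0 TPM in Mut and 19.9, 19.2, 21.1 and 20.4 TPM in WT (0.17, 0.01 to 0.32, adjusted p = 0.161). Timm17b was at 23.2 ± 3.41 TPM in Mut and 27.9 ± 2.03 in WT (-0.26, -0.51 to -0.02, adjusted p = 0.166).

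The liver median of the members was -0.02 and that of all genes 0.10. Median-ratio scaling moved the members to -0.15 with 22 of 24 lower, and the median of all genes to -0.02. It called 1 member, Timm10 (limma adjusted p = 0.0487), where 2.56% of 11976 genes were called. Timm10 was at 28.95 ± 2.24 TPM in Mut and 34.9 ± 4.76 TPM in WT. Of the other import genes, 1 of 26 was called, where 4.16% of all genes were: Mipep, a processing peptidase of the matrix, was at 21.1 TPM in Mut liver and 15.6 TPM in WT liver (0.42, SE 0.10, adjusted p = 0.0438). Macrophage markers summed to 83.9 to 225 TPM in Mut livers and 34.6 to 126 TPM in WT livers, with 1 of 6 called higher. Fibroblast markers summed to 121 to 186 against 92.9 to 131 TPM, with 3 of 5 called higher. Hepatocyte markers summed to 68500 to 91200 TPM in Mut and 75500 to 90500 in WT, with 5 of 5 lower and none called. The part of these cell types in the liver values was not tested.

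In muscle, Tomm40 was at 23.1, 21.7, 22.5 and 22.7 TPM in Mut and 24.7, 25.8, 24.6 and 25.6 TPM in WT. The groups did not overlap, and the log2 fold change was -0.16 (95% interval -0.29 to -0.02, adjusted p = 0.593). Tomm34 did not overlap in the other direction, with 8.57 ± 0.482 TPM in Mut and 7.62 ± 0.337 TPM in WT (0.15, 0.00 to 0.30, adjusted p = 0.641). Tomm5 was at 75.1 ± 8.93 TPM in Mut and 86.5 ± 3.63 TPM in WT (-0.21, -0.41 to 0.00, adjusted p = 0.637). The median of the members was -0.04, with 17 of 24 lower, and that of all genes was 0.05. Macrophage markers summed to 39.4 to 56.9 TPM in Mut muscle and 29.0 to 37.7 in WT, and fibroblast markers to 382 to 435 against 301 to 362. Adipocyte markers summed to 608 to 812 against 497 to 671 TPM and red blood cell markers to 624 to 2980 against 545 to 781 TPM. No gene of these 4 lists was called. Skeletal muscle fibre markers summed to 59300 to 94900 TPM in Mut and 62000 to 80000 in WT, with 5 of 5 higher and none called. The part of these cell types in the muscle values was not tested.

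The limma test of whether the Mut minus WT difference varied between tissues called none of the 24 members, against 5.87% of 10109 genes. The smallest p belonged to Timm10b (unadjusted p = 0.0192, adjusted p = 0.112 over all genes by limma), the only member under an unadjusted p of 0.05. Its Mut mean was 64.3 TPM against 51.4 in BAT and 21.0 against 27.0 in heart. Timm10b passed when Mut heart library 3 was left out (adjusted p = 0.0396), with adjusted p from 0.0662 to 0.222 for the smallest member with any other library left out, and under median-ratio scaling Tomm22 passed instead (adjusted p = 0.0213). The share of all genes called for the interaction in these altered settings was not computed. The ratio of Timm17a to Timm17b was 1.64 ± 0.192 in Mut liver and 9.64 to 11.8 on average in the other Mut tissues.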

How the data were processed

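The authors deposited 1 table of TPM per transcript for the 32 libraries, made with Salmon per the submitters' processing notes. For the Salmon version, transcript set and genome build, the answer is not given in the sources used here. Per the labels' protocols, total RNA was extracted with magnetic beads and sequenced from strand-specific libraries. Of 147493 transcripts, 136081 (92.26%) matched GENCODE M21 with version numbers ignored, and their TPM was summed over 51510 genes. Unmatched transcripts held 0.451% to 0.896% of a library's TPM. Tests used limma 3.58.1 in R 4.3.3 on log2(TPM + 1), two-sided, keeping genes whose mean reached 1 TPM: WT against Mut in each tissue, the 6 differences between WT tissues in 1 fit of the WT libraries, and the tissue by genotype interaction in 1 fit of all libraries. Depth is unknown, so precision rests on the spread between the 4 libraries of a group, which is what the p-values measure. The procedure was tested on simulated data.

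Named genes with test values were, per tissue, the 3 members of smallest p for Mut against WT (and for the interaction), and up to 2 rises and 2 falls of largest fold change among called members without overlap for each WT difference. Of other import genes, up to 3 called per comparison by smallest p could be named, of which Dnajc15, Grpel2 and Mipep are given. Timm10 in liver and genes named for their levels or overlaps were chosen after their values were seen. The members, lists, tests and motifs were chosen with earlier results of these data known. Alternatives were another pseudocount (0.1), no filter or 5 TPM, no trend, median-ratio scaling, a fixed sum that omits mitochondrially encoded RNA and the 10 genes of highest mean, a replicate block, 1 joint fit, and each library left out; sums over protein-coding transcripts, and Tomm40l without its 10-exon transcript, were added after seeing the data. Promoter sequences are from RefSeq (GRCm38.p6). Figures used Python 3.11.15 and matplotlib 3.10.9.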

Additional observations from a re-analysis of the deposited data

Results flagged for a closer look

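Within groups of 4 libraries, 8 of 224 values of a gene or ratio had 1 library far from the other 3 by Dixon's criterion (3.57%), where chance gives about 1 in 20. Mut heart library 2 was low for Tomm7, at 20.3 TPM against 37.9 to 39.6 in the other 3, and for Timm8a1, at 11.8 TPM against 13.5 to 13.8. Among WT hearts, library 4 was high for Tomm20 at 69.3 TPM and library 3 low for Timm50 at 19.8 TPM. WT liver library 1 was low for Tomm40 at 32.3 TPM, and WT muscle library 1 was high for Timm17a at 167 TPM. WT BAT library 3 was high for Timm44 at 82.3 TPM, against 76.3 to 77.0. In WT muscle the ratio of Timm8a1 to Timm8b was 0.0768 in library 2, against 0.0547 to 0.0583.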

How the results depend on the processing

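Of 258 recomputed counts of called members, taken over both directions together, 255 stayed within 1.5 times the reported count. The split between higher and lower moved more, as for WT muscle against WT heart, with 3 higher and 12 lower under the rescaling in place of 13 and 6. Of all genes, 68.6% were called under that rescaling, both directions together, and their split by direction is not given here. The median of all genes also moved lower under it, from 0.07 to -0.28. The exceptions among the totals were Mut against WT in liver, with 1 member under median-ratio scaling, and the interaction, with 1 under median-ratio scaling and 0 to 1 with each library left out. In that liver setting 2.56% of all genes were called. For the interaction in its altered settings the share of all genes called was not computed. Of 754 recomputed values of named genes, 752 kept their direction and their side of the threshold. Timm8a1 in WT liver against WT BAT became -0.02 under the rescaling, and Tomm40l in BAT, Mut against WT, became 0.03 over protein-coding transcripts. The median of the members for WT muscle against WT heart became -0.14 under the rescaling. The rescaling divides by what remains after the mitochondrial RNA and the 10 genes of highest mean are removed, which differs between tissues. The part of each in these changes was not tested, nor was the cause of the other changes. With the replicate number as a block (replicate block), the numbers of called members were unchanged, such as 18 for WT heart against WT BAT and 0 in each genotype comparison. In the 10 pairs of groups checked, same-numbered libraries did not all deviate together. Correlations ran from -0.248 to 0.141 between WT and Mut of a tissue, and from -0.086 to 0.149 between WT tissues. Among WT tissues, the same number gave the best match for 3 libraries each in BAT with liver and heart with muscle. The count was 2 in BAT with heart and heart with liver, and 0 in muscle with BAT or liver. Whether same-numbered libraries of different tissues came from the same mouse was not established. The numbers were not taken as pairs, and the reported tests treated libraries as independent.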
